A study of Mus musculus with 12 samples.

Results

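The guanylate-binding protein (GBP) genes were read from an RNA-seq count table of mouse bone marrow-derived dendritic cells (DCs). The rows were chosen by gene symbol, and all 10 symbols (Gbp2, Gbp2b, Gbp3, Gbp4, Gbp5, Gbp6, Gbp7, Gbp8, Gbp9 and Gbp10) were found among 55471 genes. All 10 were also among the 18228 genes that passed the filter on low counts. Gbp10 passed it through the IFN-β libraries alone, so a difference between treatments was built into its test.

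Bone marrow of C57BL/6 mice was cultured with GM-CSF. During this culture it was transduced with a retrovirus that carries a short hairpin RNA (shRNA) and a human CD8 reporter. The cells were then sorted on the reporter. The shRNA targeted firefly luciferase, which mouse cells lack (shControl), or Ppargc1b, which encodes PGC-1β, a co-activator of mitochondrial genes (shPpargc1b). Interferon-β (IFN-β) was given for 6 h or not at all, which made 4 groups of 3 libraries: unstimulated shControl, shControl with IFN-β, unstimulated shPpargc1b, and shPpargc1b with IFN-β. All groups were transduced, sorted wild-type cells, and each arm was labelled with a single shRNA name, so an effect of the hairpin itself and of the loss of Ppargc1b cannot be told apart. The labels do not say that the 3 libraries of a group came from separate cultures or animals, so p-values measure the spread between these libraries, which may be technical.

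GBPs are large GTPases of the dynamin superfamily that are induced by interferons. They gather on the vacuoles and membranes of intracellular bacteria and parasites, break or mark them, and help cytosolic sensors and inflammatory caspases to respond. Type I interferon acts through the receptors IFNAR1 and IFNAR2 and the kinases JAK1 and TYK2, and its target genes often carry interferon-stimulated response elements (ISREs) near their starts.

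The members lie in 2 clusters of 5 genes. On chromosome 3, on the plus strand of GRCm38, the order was Gbp5 (142493978 to 142522344), Gbp7 (142530342 to 142550149), Gbp3 (142560026 to 142573209), Gbp2b (142594847 to 142619179) and Gbp2 (142620602 to 142638008), over 144 kb. On chromosome 5, on the minus strand, the order by coordinate was Gbp8 (105014150 to 105139540), Gbp9 (105077630 to 105139539), Gbp4 (105115767 to 105139586), Gbp10 (105215699 to 105239533) and Gbp6 (105270702 to 105293698), over 280 kb. The annotation calls each of them protein coding.

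RefSeq promoter windows (GRCm38.p6, from 250 bases before to 50 bases after the start) were matched for 5 of the 10 members, all on chromosome 3. The core of an ISRE, GAAA, any 2 bases and GAAA, was searched on both strands, as was TTC, any 3 bases and GAA, the form of a gamma-activated site (GAS), an element known from genes induced by interferon-γ. Stretches around the matches are shown because they hold a motif that these interferon-induced genes have in common ahead of a RefSeq start. These starts can differ from those of the gene models listed above. The Gbp5 stretch lies within its gene model, and the ISRE core of Gbp2 lies in its annotated first exon. Capitals mark the ISRE core, which reads TTTC, 2 bases and TTTC on the strand shown, and in Gbp5 and Gbp7 also the GAS. In Gbp5, the GAS match farther from the RefSeq start lies outside the stretch shown.
Gbp5 (chr3:142496749-142496899, plus strand): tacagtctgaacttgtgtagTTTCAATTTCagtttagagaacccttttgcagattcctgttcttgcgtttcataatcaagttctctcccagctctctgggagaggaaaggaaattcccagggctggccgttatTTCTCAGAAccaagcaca
Gbp7 (chr3:142530216-142530335, plus strand): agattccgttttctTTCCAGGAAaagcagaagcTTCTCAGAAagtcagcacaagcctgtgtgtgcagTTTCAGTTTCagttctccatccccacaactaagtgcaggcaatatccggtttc
Gbp3 (chr3:142559906-142560025, plus strand): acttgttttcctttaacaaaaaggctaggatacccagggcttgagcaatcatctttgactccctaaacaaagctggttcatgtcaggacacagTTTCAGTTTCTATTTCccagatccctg
Gbp2b (chr3:142594690-142594846, plus strand): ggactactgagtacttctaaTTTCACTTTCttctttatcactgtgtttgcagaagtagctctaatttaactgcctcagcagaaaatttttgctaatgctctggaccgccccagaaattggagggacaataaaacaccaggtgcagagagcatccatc
Gbp2 (chr3:142620594-142620623, plus strand): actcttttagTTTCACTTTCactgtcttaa

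The ISRE core was found in a window of each of these 5 members, against 3.99% of 27025 genes with a RefSeq promoter window. Gbp3 had 2 windows, and only the one shown held a match. The core began 165 bases before the RefSeq start in Gbp5, 137 in Gbp2b, 59 in Gbp2, 53 in Gbp7 and 45 in Gbp3. Gbp3 held another, overlapping core. A GAS was found in Gbp5 and Gbp7, with 2 matches each, against 9.55% of genes. Among all tested genes with a promoter window, the core was held by 7.32% of 2910 genes that rose with IFN-β in shControl, by 2.61% of 3329 that fell and by 3.01% of 5024 that did not pass the test. Among the 294 that rose by at least 2 on the log2 scale, 25.2% held it. A match describes these letters only and does not show that a factor binds there.

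The gene models limit what can be counted on chromosome 5. The counting left out read pairs that overlap more than 1 gene or that map to more than 1 place. Gbp10 shared 46.3% of its exon bases, and Gbp6 29.0%, with Gm43302, a gene model that runs through both. Of the 100-base windows of Gbp10 transcripts, 73.5% were also found in transcripts of another gene, and for Gbp6 the share was 64.5%. Gbp8, Gbp9 and Gbp4 shared only a first exon, of which the common part was at most 1.77% of the exon bases of any of them, and Gbp7 shared 11.3% with a pseudogene. Counts of Gbp10 and Gbp6 are therefore lower than their RNA would give, by an unknown factor, although the same rule held in every library.

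**Figure D1:**
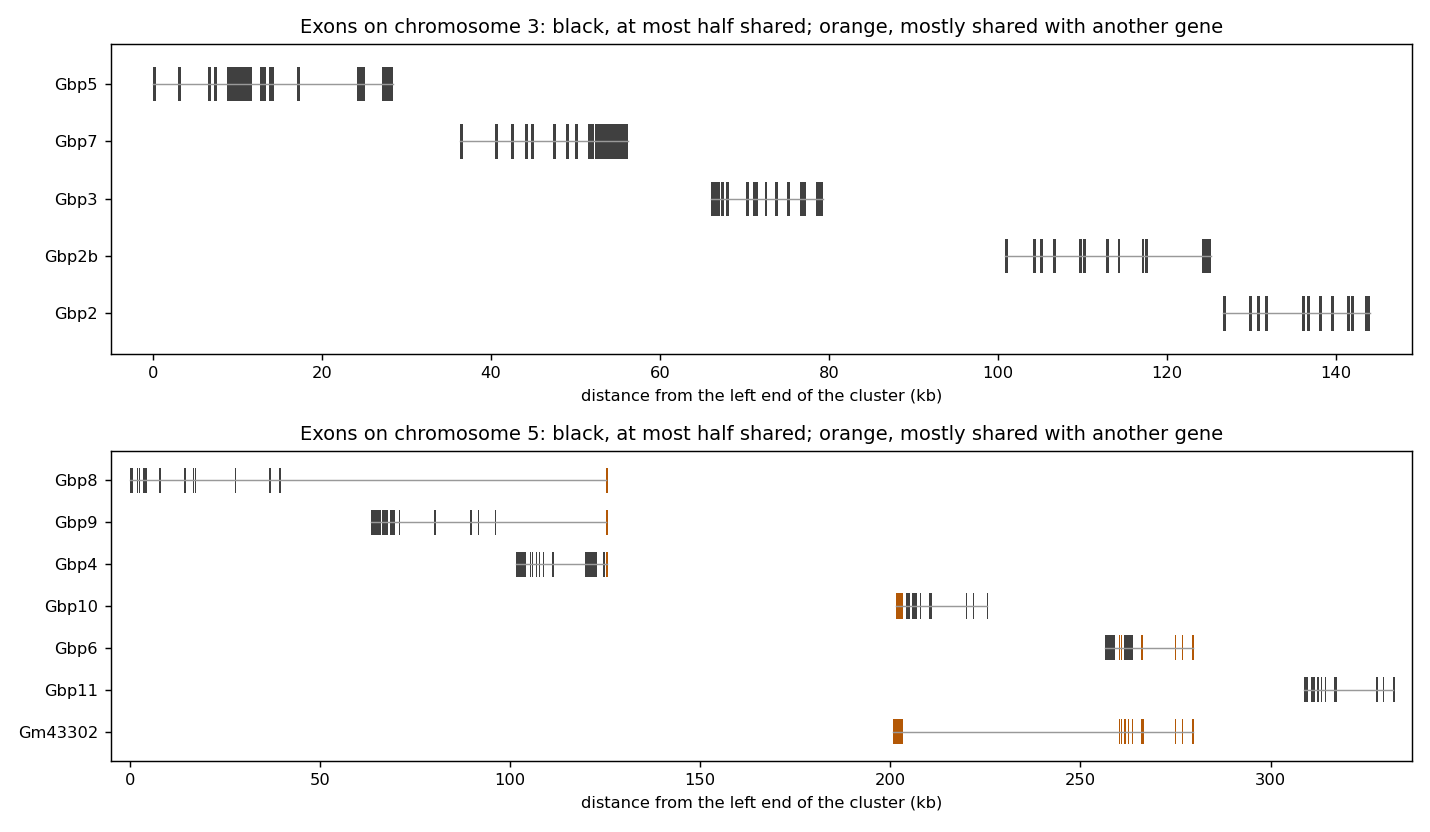
Exons of the GBP genes on chromosome 3 (top) and chromosome 5 (bottom), with Gbp11 and Gm43302, against the distance from the left end of the cluster in kb; narrow exons are widened to be visible. Orange exons, mostly shared with another gene, are seen at the common first exon of Gbp8, Gbp9 and Gbp4. They also mark the left-end exon of Gbp10, most exons of Gbp6 and every exon of Gm43302.

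Each library held between 49919648 and 77726101 counts. The targeted gene was checked first: Ppargc1b was at 33.4, 33.3 and 36.7 CPM (counts per 1000000 counts of the TMM-scaled library) in unstimulated shControl and at 18.6, 19.3 and 20.3 in unstimulated shPpargc1b. It was lower by knockdown without IFN-β (log2 fold change -0.83 ± 0.10 SE, adjusted p = 3.25e-05) and with it (-0.57 ± 0.11, adjusted p = 9.45e-04). Markers of both dendritic cells and macrophages were present: in unstimulated shControl, Itgax (CD11c) was at 949 ± 61.7 CPM and Csf1r at 1226 ± 18.6 CPM (SD, n = 3). All 8 lymphocyte-like markers, which include Ifng, were below 1 CPM in every library.

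IFN-β raised all 9 members other than Gbp10 in both arms, and Gbp10 is given apart because of how it passed the filter. The test called 23.7% of all tested genes higher in shControl and 21.4% in shPpargc1b. The CPM of the IFN-β libraries lay above those of the unstimulated libraries, without overlap, for these 9 members in both arms, which held for 27.2% of all genes in shControl and 24.7% in shPpargc1b. The median log2 fold change of the 9 was 3.77 in shControl and 3.44 in shPpargc1b, beside -0.03 and -0.02 over all genes tested. The summed level of the members went from 456 ± 17.8 CPM in unstimulated shControl to 5335 ± 215 CPM with IFN-β, which was 0.490% ± 0.0158 of the deposited counts of a library. In shPpargc1b the sum went from 411 ± 20.3 to 3899 ± 90.4 CPM.

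Gbp2, which coats pathogen vacuoles, was the most abundant member. It was at 181, 151 and 156 CPM in unstimulated shControl, at 2192, 2291 and 2358 CPM in shControl with IFN-β, at 152, 137 and 157 CPM in unstimulated shPpargc1b and at 1687, 1568 and 1722 CPM in shPpargc1b with IFN-β. All IFN-β libraries were far above all unstimulated ones, and with IFN-β the shRNA arms did not overlap. The IFN-β effect on Gbp2 was 3.81 ± 0.07 on the log2 scale in shControl (adjusted p = 3.04e-15) and 3.48 ± 0.07 in shPpargc1b (adjusted p = 9.45e-15), the latter an 11.2-fold rise.

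Gbp4, known as a negative regulator of type I interferon induction, had the highest fitted IFN-β fold among the members with counts in every library. Its CPM was 16.4, 17.6 and 16.4 in unstimulated shControl and 366, 396 and 380 with IFN-β. In shPpargc1b it was 15.3, 13.4 and 16.4 unstimulated and 262, 234 and 263 with IFN-β. The rise was 22.6-fold in shControl and 16.8-fold in shPpargc1b (adjusted p = 4.56e-16 and 1.97e-15), and the highest shPpargc1b value with IFN-β lay below the lowest shControl value.

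The members other than Gbp2, Gbp4 and Gbp10 rose between 5.92-fold (Gbp8) and 18.4-fold (Gbp5) in shControl. Gbp8 rose least among the members with counts in every library, next to Gbp7, which helps to assemble the NADPH oxidase on phagosomes and rose 6.29-fold. Gbp2b, the gene long called Gbp1 in mouse, stayed low, at 1.40, 1.57 and 2.06 CPM in unstimulated shControl and 11.4, 11.9 and 16.8 CPM with IFN-β. It rose 7.99-fold (adjusted p = 7.55e-08). Gbp9 rose 9.27-fold, Gbp6 13.6-fold and Gbp3 13.8-fold in the same comparison.

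Gbp10 had 0 counts in each of the 3 unstimulated shControl libraries. It had 8, 21 and 39 counts in shControl with IFN-β, 3, 2 and 0 counts in unstimulated shPpargc1b, and 21, 9 and 20 counts in shPpargc1b with IFN-β. Set against a floor of 3 counts over the unstimulated shControl group, it was at least 23.2-fold higher in shControl with IFN-β. The IFN-β groups of both arms overlapped, and at these counts a knockdown effect was not detectable (adjusted p = 0.736).

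**Figure D2:**
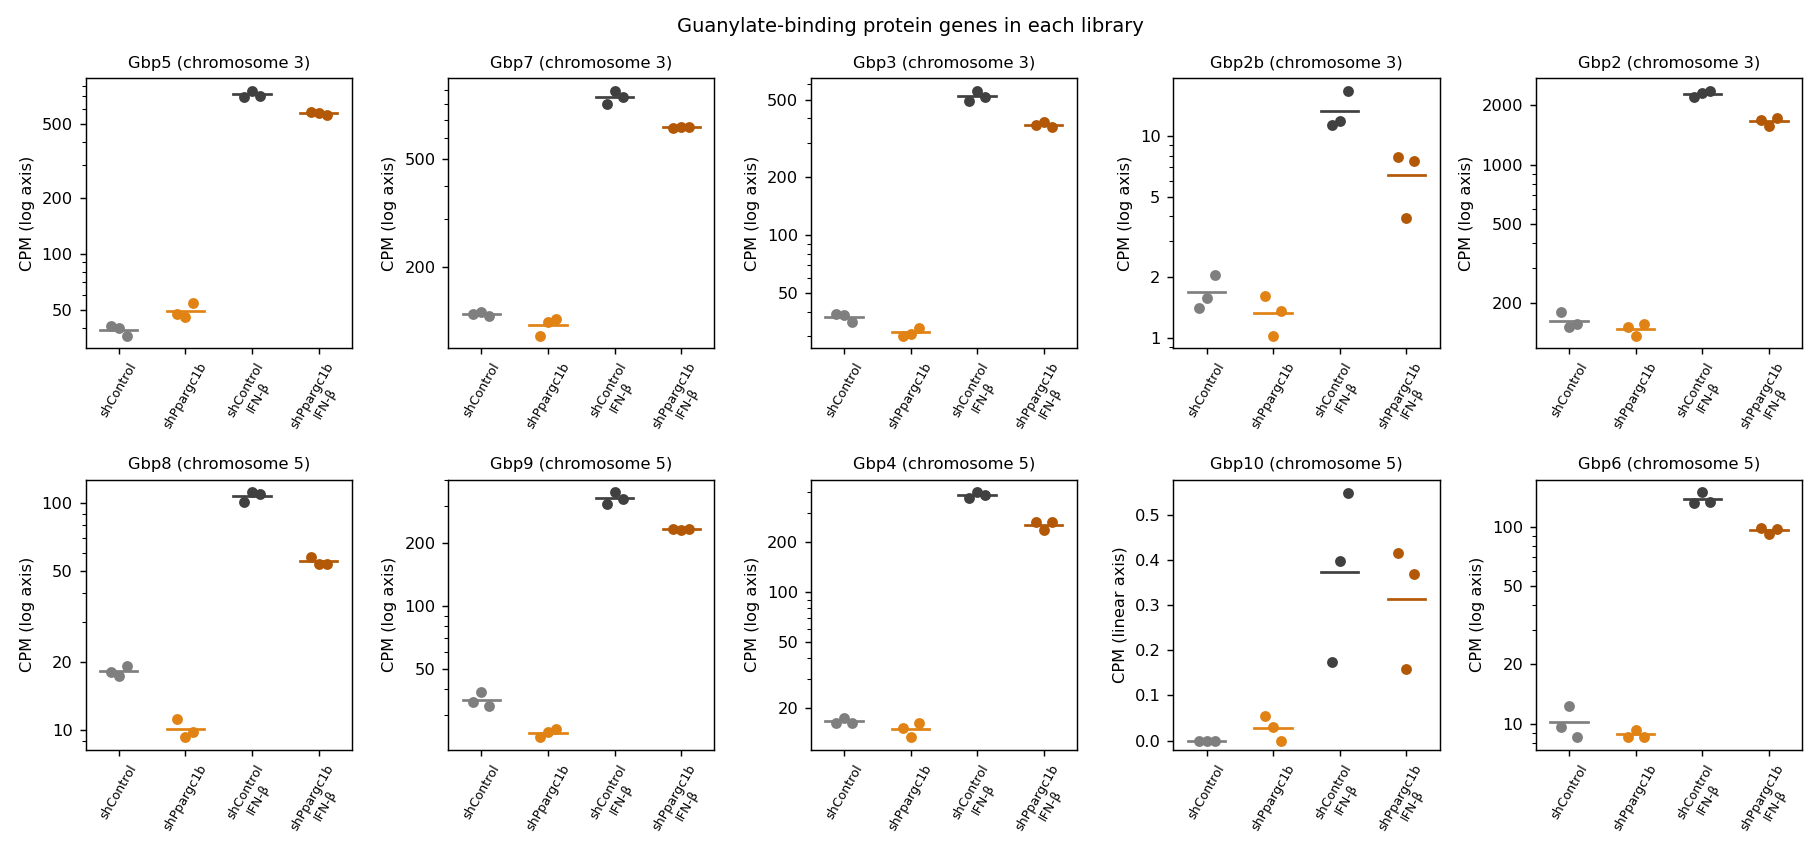
CPM of each GBP gene in the 12 libraries (points, 3 per group) with the group mean (line), on log axes except for Gbp10, which is on a linear axis because of its 0 counts. In each panel the IFN-β libraries lie above the unstimulated ones, and in 9 panels the shPpargc1b libraries with IFN-β all lie below the shControl libraries with IFN-β.

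Levels were compared between genes per kb of merged exons. With IFN-β in shControl, Gbp2 stood at 906 ± 33.2 CPM per kb, followed by Gbp3 (160 ± 9.60) and Gbp7 (151 ± 8.65), whose libraries overlapped. Gbp5 (108 ± 4.64), Gbp9 (63.5 ± 3.97), Gbp4 (50.8 ± 2.03), Gbp8 (31.2 ± 1.67) and Gbp6 (23.3 ± 1.65) came next, and Gbp2b (4.73 ± 1.06) and Gbp10 (0.0963 ± 0.0488) came last. Over exon bases that no other gene shares, a length chosen after the data were seen, Gbp7 stood at 170 and Gbp6 at 32.8 CPM per kb. The length of the longest transcript changed the order. On it, Gbp5 (191 CPM per kb) stood above Gbp7 (151), and Gbp4 (83.9) above Gbp9 (65.1).

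Before stimulation the order was not the same. In unstimulated shControl, Gbp7 (24.0 ± 0.408 CPM per kb) was second to Gbp2 (64.6 ± 6.33) and above Gbp3 (11.5 ± 0.583), without overlap. Gbp5 (5.88 ± 0.379) came below Gbp9 (6.85 ± 0.554) and overlapped Gbp8 (5.28 ± 0.286). In unstimulated shPpargc1b, Gbp5 (7.37 ± 0.677) stood above Gbp9 (4.79 ± 0.222), while Gbp8 fell to 2.93 ± 0.292. Gbp5 and Gbp9 thus held opposite orders in the 2 arms on this length, but not on that of the longest transcript, where Gbp5 stood above Gbp9 in both arms (10.4 against 7.03 CPM per kb in unstimulated shControl).

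**Figure D3:**
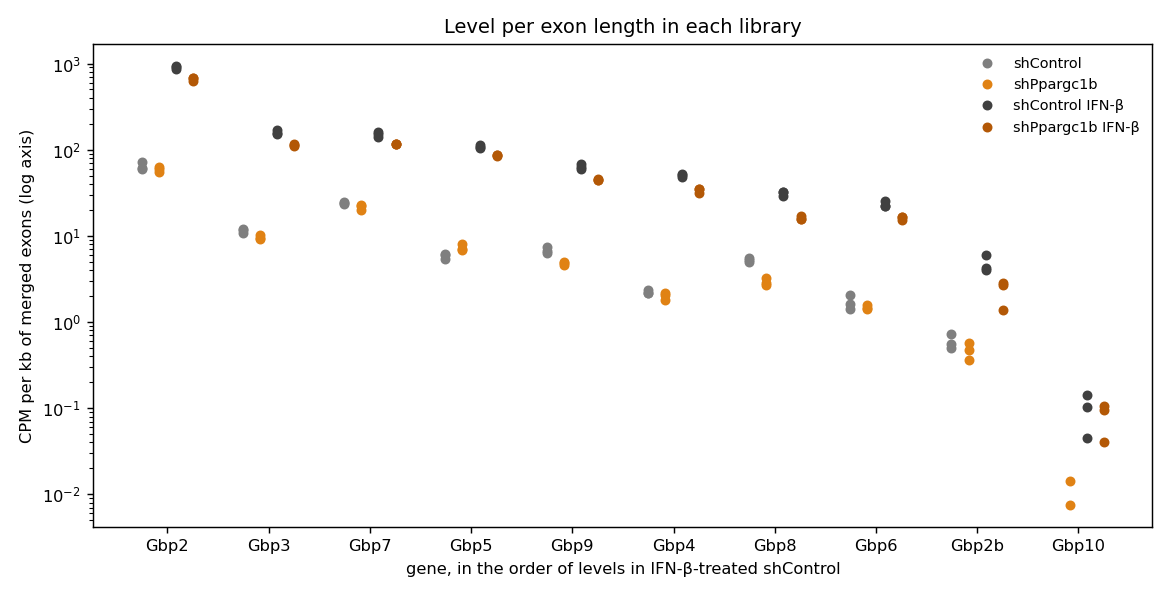
Level per kb of merged exons (CPM per kb, log axis) of each GBP gene in the 12 libraries, in the order of the levels in shControl with IFN-β; libraries with 0 counts of Gbp10 are not drawn. Gbp2 is highest in every group, at 906 CPM per kb in shControl with IFN-β, and Gbp10 lowest.

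The next comparison asks what knockdown of Ppargc1b did to the GBP genes of unstimulated cells. It moved them unequally: 1 of 10 members was higher and 3 were lower, where the test called 12.4% of all genes higher and 11.1% lower, and 6 did not pass. The median over the members was -0.18 on the log2 scale, beside -0.0049 over all genes tested.

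Gbp5, which promotes inflammasome assembly, was the member that rose. It was at 41.0, 39.8 and 36.2 CPM in unstimulated shControl and at 47.2, 45.6 and 54.0 CPM in unstimulated shPpargc1b. All 3 shPpargc1b libraries were above all 3 shControl libraries, as held for 18.4% of all genes, and 18.4% lay the other way. The log2 fold change was 0.33 ± 0.06 (SE), or 1.26-fold (adjusted p = 0.00117).

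Gbp8, whose function is less well known, fell most. It was at 18.0, 17.3 and 19.2 CPM in unstimulated shControl and at 11.2, 9.30 and 9.78 CPM in unstimulated shPpargc1b, with no overlap. The fall was 1.80-fold (log2 fold change -0.85 ± 0.07, adjusted p = 6.37e-07).

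Gbp9, its neighbour, was at 34.6, 38.6 and 33.1 CPM against 23.5, 25.0 and 25.7 CPM, again with no overlap, and fell 1.43-fold (adjusted p = 1.5e-05). Gbp3 was at 39.0, 38.5 and 35.5 CPM against 30.1, 30.8 and 33.0 CPM and fell 1.20-fold (adjusted p = 0.00202). For the members that did not pass, log2 fold changes were -0.13 ± 0.07 in Gbp2, -0.14 ± 0.05 in Gbp7, -0.16 ± 0.07 in Gbp4, -0.21 ± 0.10 in Gbp6 and -0.34 ± 0.29 in Gbp2b. Gbp10 had 5 counts over its group against 0.

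With IFN-β, 9 of 10 members were lower in shPpargc1b than in shControl, all but Gbp10, and none was higher. The test called 12.7% of all genes lower and 11.5% higher in this comparison. The CPM of the same 9 did not overlap between the arms, which held in that direction for 20.7% of all genes. The members' median was -0.49 on the log2 scale, beside -0.01 over all genes tested. In bulk RNA, fewer cells that express a gene and less RNA of it per cell cannot be told apart.

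The size of the fall differed between members. Gbp8 was at 101, 111 and 110 CPM in shControl with IFN-β and at 58.2, 53.8 and 54.2 CPM in shPpargc1b with IFN-β, so that every knockdown library was far below every control. The fall in Gbp8 was 1.94-fold (log2 fold change -0.96 ± 0.06, adjusted p = 9.25e-08). Gbp2b had a similar estimate with a wider error, at 7.91, 3.93 and 7.49 CPM against 11.4, 11.9 and 16.8 CPM (-1.06 ± 0.22, adjusted p = 0.00249).

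Gbp4 (-0.59 ± 0.06), Gbp6 (-0.53 ± 0.08), Gbp9 (-0.50 ± 0.06), Gbp3 (-0.49 ± 0.05) and Gbp2 (-0.46 ± 0.07) formed the middle of the range, with adjusted p between 5.92e-06 (Gbp3) and 2.86e-04 (Gbp6). Gbp9 was at 309, 350 and 326 CPM in shControl with IFN-β and at 235, 231 and 233 CPM in shPpargc1b with IFN-β. Gbp7 fell 1.29-fold (-0.37 ± 0.05, adjusted p = 8.41e-05). Gbp5 fell 1.26-fold, from 692, 751 and 706 CPM to 579, 570 and 557 CPM (-0.33 ± 0.06, adjusted p = 6.32e-04), a change opposite in direction to the one without IFN-β.

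Whether the knockdown effect itself depended on IFN-β was tested as an interaction, in which the effect without IFN-β is subtracted from the effect with it. Of the 10 members, 1 passed, Gbp5, in a contrast that called 0.730% of all genes and 0.669% in the negative direction. Its interaction was -0.66 ± 0.09 on the log2 scale (adjusted p = 0.00368), which matches a rise with IFN-β of 18.4-fold in shControl and 11.6-fold in shPpargc1b. Gbp4 lay at the edge of the threshold, at -0.43 ± 0.09 (adjusted p = 0.0506). Its call changed in 7 of 17 alternatives and that of Gbp2 in 3. With a block for runs of library codes, Gbp4 (adjusted p = 0.0176) and Gbp2 (adjusted p = 0.0269) passed as well.

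For the others the difference between the 2 knockdown effects did not pass, and for Gbp10 the counts were too low to give one. It was -0.72 ± 0.36 in Gbp2b (adjusted p = 0.534), -0.33 ± 0.09 in Gbp2 (adjusted p = 0.138), -0.32 ± 0.13 in Gbp6, -0.23 ± 0.07 in Gbp7 and -0.22 ± 0.07 in Gbp3. Gbp8 (-0.11 ± 0.09) and Gbp9 (0.02 ± 0.08) had estimates nearest to 0, which places their knockdown effects with and without IFN-β side by side, at -0.96 and -0.85 in Gbp8 and at -0.50 and -0.52 in Gbp9.

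**Figure D4:**
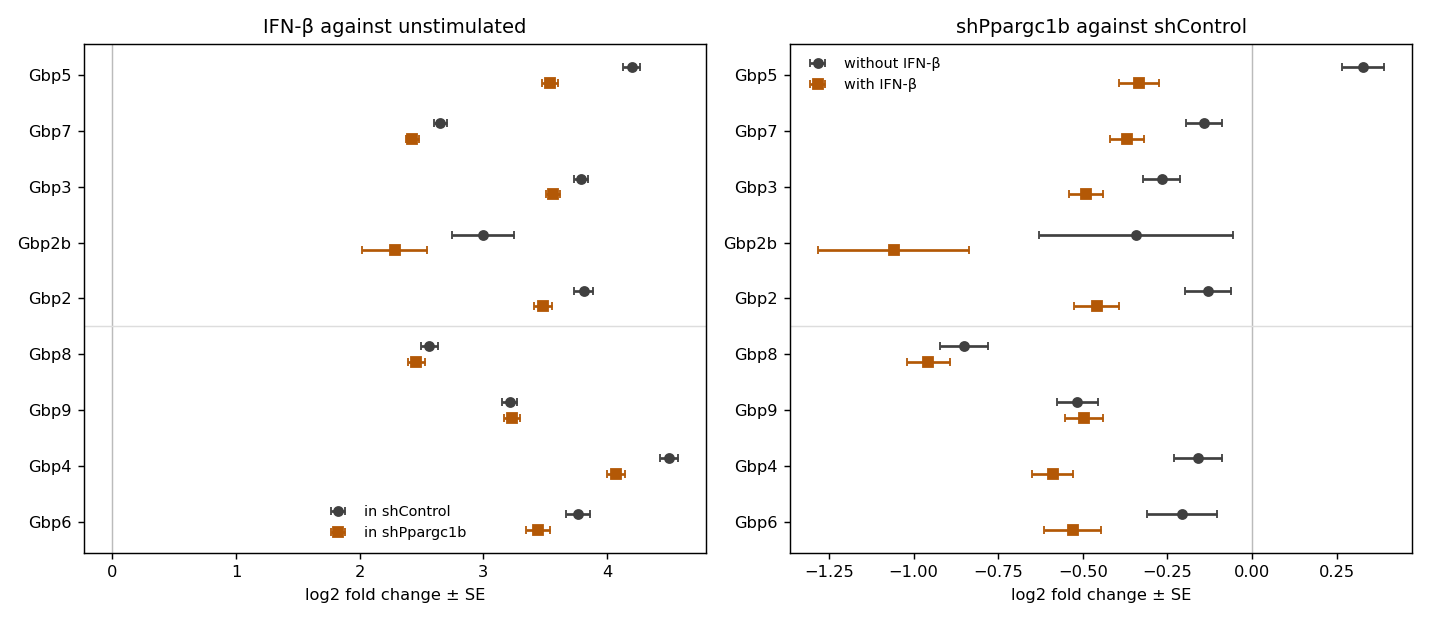
Log2 fold changes with their SE for 9 GBP genes, from IFN-β in each shRNA arm (left) and from shPpargc1b against shControl without and with IFN-β (right); the grey line parts chromosome 3 (above) from chromosome 5 (below), and Gbp10 is left out for its low counts. All 9 lie below 0 for knockdown with IFN-β, and Gbp5 alone lies above 0 for knockdown without it, at 0.33.

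By cluster, the share of the chromosome 5 members in all GBP counts was lower in shPpargc1b, as a description with no test of its own. Chromosome 5 members held 17.7% ± 1.18 of all GBP counts in unstimulated shControl and 14.3% ± 0.347 in unstimulated shPpargc1b (SD, n = 3). With IFN-β the shares were 17.9% ± 0.344 in shControl and 16.3% ± 0.237 in shPpargc1b. The 3 libraries of each shPpargc1b group lay below the 3 of the matching shControl group in both conditions. The share weighs members by their counts. The median log2 fold change by knockdown was -0.14 on chromosome 3 and -0.21 on chromosome 5 without IFN-β. With IFN-β the medians were -0.46 and -0.53, and the ranges overlapped (-1.06 to -0.33 and -0.96 to -0.30).

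Levels of some cell type markers differed between the shRNA arms as well. By knockdown, the test called 11.1% of all genes lower and 12.4% higher without IFN-β, and 12.7% and 11.5% with it. The summed level of 8 macrophage-like markers was 3350 to 3567 CPM in shControl with IFN-β and 2947 to 3083 CPM in shPpargc1b with IFN-β, and 4 of the 8 were lower and none higher. Without IFN-β the sums were 2651 to 2781 and 2417 to 2475 CPM, with 2 of 8 lower. Of 9 dendritic-like markers, 8 were tested, and 4 were higher by knockdown in each condition, with sums of 4812 to 5822 CPM in shControl and 5655 to 6498 CPM in shPpargc1b with IFN-β. Neutrophil-like markers summed to 39.1 to 101 CPM in shControl with IFN-β and to 87.3 to 164 CPM in shPpargc1b with IFN-β, which overlapped. Of these, 1 of 8 was called higher by knockdown in each condition, near the share of all genes. Mast cell or basophil-like markers summed to 8.80 to 17.5 CPM in unstimulated shControl and to 22.3 to 26.6 CPM in unstimulated shPpargc1b. With IFN-β their sums overlapped, at 7.84 to 15.8 CPM in shControl and 13.0 to 22.3 CPM in shPpargc1b. Of these markers, 2 of 7 were higher by knockdown in each condition. No marker of these lists was at 0 in a whole group. The part of these shifts in the GBP results was not tested.

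Genes that act around the GBPs were read from lists. Of 15 interferon signalling genes, 14 rose and 1 fell with IFN-β in either arm. Of all genes, 23.7% were called higher in shControl and 21.4% in shPpargc1b. Knockdown raised 6 and lowered 2 of them without IFN-β, where 12.4% and 11.1% of all genes were called, and raised 2 and lowered 3 with it, beside 11.5% and 12.7% of all genes. Stat2, a transcription factor of the type I interferon response that acts with Irf9, was higher by knockdown without IFN-β, by 0.21 ± 0.05 on the log2 scale (adjusted p = 0.00479). With IFN-β the value for Stat2 was -0.10 ± 0.05 (adjusted p = 0.169), and Irf9 did not pass in either condition.

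Irf1, a transcription factor needed for full expression of several GBPs, was lower by knockdown with IFN-β (-0.34, adjusted p = 2.62e-05) but did not pass without it (-0.08, adjusted p = 0.191). The difference between these did not pass (adjusted p = 0.0673). Irf8, a factor of dendritic cell development, was higher by knockdown in both conditions, by 0.37 without IFN-β and 0.53 with it (adjusted p = 1.82e-04 and 8.23e-06).

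The immunity-related GTPases and very large inducible GTPases work beside the GBPs on pathogen vacuoles. Of 10 such genes, 10 rose with IFN-β in shControl, beside 23.7% of all genes, with a median of 3.64 beside -0.03. By knockdown with IFN-β, 8 were lower, beside 12.7% of all genes, with a median of -0.34 beside -0.01. Without IFN-β, 1 was higher and 2 were lower, near the 12.4% and 11.1% of all genes. Irgm1, a regulator of the family that guards host membranes, was higher by knockdown without IFN-β (0.24, adjusted p = 0.00316), was at -0.14 with it (adjusted p = 0.0642), and passed the interaction test (-0.38, adjusted p = 0.0254).

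Of 11 inflammasome and lysis genes, which act downstream of GBPs, 10 rose with IFN-β in shControl, beside 23.7% of all genes. By knockdown with IFN-β, 7 were lower and none higher (median -0.25). The share of all genes called lower there was 12.7%. Without IFN-β, 3 were higher and 2 lower, beside 12.4% and 11.1% of all genes. Casp4, the sensor of cytosolic lipopolysaccharide, was at -0.22 with IFN-β (adjusted p = 0.00185), and its interaction was -0.31 (adjusted p = 0.0408). Aim2, a sensor of cytosolic DNA, was lower too (-0.25, adjusted p = 3.52e-04), and its difference between conditions was -0.28 (adjusted p = 0.0381). Gsdmd, the pore-forming protein, was at -0.13 with IFN-β (adjusted p = 0.0643).

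Genes for lipid modification and targeting gave few calls by knockdown, at counts too small to set apart from the share of all genes called. Of 6 prenylation and CaaX processing genes, which attach the lipid tail that some GBPs carry, 1 was higher by knockdown without IFN-β and 1 lower with it. Of 10 ATG8 conjugation genes, 1 was lower by knockdown without IFN-β and none passed with it. Of 3 atlastins, related GTPases of the endoplasmic reticulum, 1 was lower in each condition.

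The genes whose pattern over the 12 libraries was most like that of the GBPs were found by Pearson's r with the mean standardised level of each cluster, among 8743 genes. For chromosome 3 they were Irf1 (r = 0.999), Tyk2, Casp1, Trafd1 and Gm5431 (r = 0.998 each). For chromosome 5 they were Tmem140 and Lrrc8c (r = 0.998 each), and Coa5, Aff1 and Phf11a (r = 0.997 each). All 12 points share the split by IFN-β, which sets most of this likeness, so r is given as a description.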

How the data were processed

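Paired-end RNA-seq of ribosomal RNA-depleted total RNA was deposited as 1 table of counts. The authors trimmed reads with Trim Galore 0.6.0 and mapped them to mm10 (GRCm38) with STAR (2.7.8a per the processing notes, another version in the study's methods). The deposited counts are whole and not normalized, and give the uniquely mapped pairs of each GENCODE gene. The strand setting is not given in the sources used here.

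The tests used edgeR 4.0.16 (R 4.3.3). filterByExpr (minimum count 10, minimum total 15) left 18228 genes and 99.96% of counts. TMM scaling was applied, and all 12 libraries entered one fit of 4 group means. Quasi-likelihood F-tests gave p-values, which were adjusted over all tested genes by Benjamini-Hochberg (threshold 0.05). Unless another tool is named, each adjusted p comes from this test. An exact two-sided permutation test of 3 libraries against 3 cannot go below 0.1. The script was tested on simulated data. Library totals ran from 49919648 to 77726101 counts. The floor used for Gbp10 covers counting error only, while SEs come from the fit and SDs from the 3 libraries of a group.

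Groups were taken from the sample titles. Gene models came from GENCODE M21, whereas the study's methods name another GENCODE release for the counts. Promoters came from RefSeq. Members and lists were chosen with earlier results of these data known. Named genes were the members, other GBP genes, Ppargc1b, pathway genes (1 of them is not reported here), the 5 genes most like each cluster, and the nearest tested coding genes. Alternatives were DESeq2 size factors, library totals, the DESeq2 1.42.0 Wald test, all genes with at least 1 count, only the groups compared, a block for runs of 4 library codes, each library left out, the length of the longest transcript and, added after the data were seen, unshared exon bases. Protein features were not analysed here.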

Additional observations from a re-analysis of the deposited data

Results flagged for a closer look

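The knockdown effect on Gbp5 differed between unstimulated and IFN-β-treated cells by the test of the difference itself. The interaction was -0.66 on the log2 scale (adjusted p = 0.00368, edgeR), and over 17 alternatives it stayed between -0.70 and -0.57, with adjusted p between 1.3e-18 and 0.0168. For Gbp5, all 3 shPpargc1b libraries lay above all 3 shControl libraries without IFN-β, as held for 18.4% of all genes. With IFN-β all 3 lay below, as held for 20.7%.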

How the results depend on the processing

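The IFN-β calls and the 9 falls by knockdown with IFN-β held under every alternative run, except that Gbp10 dropped out of the test in fits of only the groups compared, which filter fewer libraries. The labels give no replicate numbers and state no pairing. A block was fitted for runs of 4 library codes, each of which holds 1 library of each group, and replicate numbers here only name libraries in the order of the records. The number of members with an interaction was 1, against 2 with DESeq2 size factors, 6 with all genes of at least 1 count, 3 with the block, 3 with the DESeq2 Wald test and 1 to 2 with each library left out. Over all genes the interaction count was 133, against 84 with library totals, 525 with all genes, 425 with the block, 449 with the DESeq2 Wald test and 36 (without unstimulated shControl replicate 3) to 271 (without shPpargc1b IFN-β replicate 2) with each library left out. The cause was not tested. The interaction of Gbp4 ranged from -0.48 to -0.34 (adjusted p 3.7e-06 to 0.167). With each library left out, the interaction of Gbp9 ran from -0.035 to 0.088, turning negative without shControl IFN-β replicate 1, unstimulated shControl replicate 2 or shPpargc1b IFN-β replicate 1, and the knockdown effect on Gbp10 with IFN-β ran from -0.62 to 0.10, turning positive without shPpargc1b IFN-β replicate 2 or shControl IFN-β replicate 3. Members called by knockdown without IFN-β numbered 4, and 4 to 6 with each library left out, since Gbp7, Gbp4 and Gbp6 passed under some of these alternatives, Gbp7 also with library totals and with the block. Library totals in place of TMM moved the median of all genes to -0.27 for IFN-β in shControl. The order by level kept 4 of 10 ranks with the longest transcript and 6 with unshared exon bases. Per length, the chromosome 5 shares were 13.1%, 10.3%, 11.3% and 10.2% (unstimulated shControl and shPpargc1b, then with IFN-β). Counts limit only Gbp10 and, less so, Gbp2b.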

Other observations

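Gbp11, annotated as a polymorphic pseudogene, lies on chromosome 5 next to Gbp6 (105323042 to 105346472, minus strand) and is not among the members. It was at 2.93 to 3.44 CPM in unstimulated shControl and fell by knockdown without IFN-β by 1.64 ± 0.14 on the log2 scale (adjusted p = 8.27e-07). With IFN-β it fell by 1.42 ± 0.10 (adjusted p = 2.44e-07), from 3 libraries at 23.8, 29.0 and 25.9 CPM to 11.1, 8.52 and 9.82 CPM. It rose with IFN-β in both arms, by 3.04 in shControl and 3.26 in shPpargc1b.

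At the other end of the cluster, 31.4 kb from Gbp8, Abcg3, an ABC transporter gene, did not rise with IFN-β and fell in shControl (-0.70, adjusted p = 8.55e-04). Abcg3 was at 4.58, 4.31 and 4.45 CPM in unstimulated shControl and at 1.70, 2.18 and 1.78 CPM in unstimulated shPpargc1b. Knockdown lowered Abcg3 without IFN-β (-1.23, adjusted p = 2.04e-05) and with it (-0.75, adjusted p = 0.00248). The nearest tested coding gene beyond Gbp11, Lrrc8b, was at -0.22 with IFN-β (adjusted p = 0.0105). Beside the chromosome 3 cluster, Pdlim5 was higher by knockdown without IFN-β (0.11 ± 0.03, adjusted p = 0.0245), with a value of 0.09 ± 0.03 with it (adjusted p = 0.0628), and knockdown effects on Kyat3 did not pass the test in either condition.

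Ratios within a library, chosen after the values were seen, do not depend on library scaling. Gbp8 counts were 98.0% to 117% of Gbp4 counts in unstimulated shControl and 59.7% to 73.3% in unstimulated shPpargc1b. With IFN-β the ratio was 27.6% to 28.9% in shControl and 20.6% to 23.0% in shPpargc1b. Gbp5 counts were 22.7% to 26.4% of Gbp2 counts in unstimulated shControl and 31.1% to 34.5% in unstimulated shPpargc1b. These ranges did not overlap between the arms (exact permutation p = 0.1, the smallest possible), nor did those of Gbp8 to Gbp9 with IFN-β and of Gbp11 to Gbp6. Other ratios computed did: Gbp8 was 44.7% to 58.2% of Gbp9 in unstimulated shControl and 37.1% to 47.8% in unstimulated shPpargc1b (exact permutation p = 0.2), and Gbp7 per Gbp2 gave exact permutation p = 0.8 without IFN-β and 0.3 with it. The ratio of Gbp5 to Gbp2 with IFN-β differed by 0.13 on the log2 scale (exact permutation p = 0.2).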
